A study of Mus musculus with 2 samples.

Results

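The thymocytes described here are the 910 cells that carry the number 5 in the authors' deposited clustering, out of 13683 cells of whole mouse thymus. The number was read from the cell table at resolution 1.5, and no further expression limit was set, though the clusters themselves were built from the expression of these cells. The study's text reports other totals of cells and clusters, and its cluster numbers are not those used here. Of the 910 cells, 355 came from the library labelled WT and 555 from the library labelled KO. WT stands for Cdc42f/f littermates, whose Cdc42 gene is flanked by loxP sites but intact, and KO for Cdc42f/f CD4Cre mice, in which Cre from the CD4 promoter removes a Cdc42 exon once thymocytes reach the double-positive (DP) stage. All animals were 6 weeks old, and the cells of 5 mice were pooled into 1 library per genotype. With 1 library per genotype, a difference between KO and WT could not be set against the spread of replicates, and none was tested. Both groups carry the floxed allele, and KO cells that escaped Cre are not separated from the rest.

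DP thymocytes carry CD4 and CD8 together and rearrange the genes of the T cell receptor (TCR) α chain with the Rag1 and Rag2 recombinase. A TCR that binds self peptide on MHC with moderate strength starts positive selection: the cell switches on early response genes such as Egr1 and Nr4a1, places the inhibitory receptor CD5 and the retention marker CD69 on its surface, stops recombination, and goes on to become a CD4 or CD8 single-positive (SP) cell. CD5 levels are known to follow the strength of the TCR signal a thymocyte has received. Cdc42 is a small GTPase that organizes actin. The study asked what its loss does to gene expression during thymic development, and the comparison of KO with WT in cluster 5 addresses this at the point where selection signals are received.

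The β chain of the TCR can use either of 2 constant-region genes, Trbc1 or Trbc2, and 1 of them is the gene that separates cluster 5 from the smaller cluster 9, described further on. Their coding sequences are shown here because they are near-identical, which bears on how far 3′ counts can tell them apart. On GRCm38, Trbc1 lies at chr6:41538218-41539881 and Trbc2 at chr6:41546730-41548352, both on the plus strand with 4 exons (GENCODE vM21). Over 518 coding bases they share 495 (95.56%), and over the 375 bases of exon 1 they share 374. The 143 coding bases after exon 1 differ at 22 positions, which are set in capitals.
Trbc1: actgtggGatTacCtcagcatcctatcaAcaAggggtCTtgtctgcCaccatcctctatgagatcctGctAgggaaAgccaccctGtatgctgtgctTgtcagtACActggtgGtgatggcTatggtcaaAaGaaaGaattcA
Trbc2: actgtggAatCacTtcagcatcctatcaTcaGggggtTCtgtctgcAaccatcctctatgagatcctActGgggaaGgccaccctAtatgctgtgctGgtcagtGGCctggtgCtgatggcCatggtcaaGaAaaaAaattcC

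The 250 bases before the start of Nr4a1, the gene with the largest ratio over the DP clusters among the genes ranked by size, are shown with the matches of 6 short motifs in capitals. The window is chr15:101266596-101266845 of GRCm38.p6 on the plus strand, taken from RefSeq. It lies inside an intron of a longer annotated Nr4a1 transcript. The motifs searched on both strands were the CArG box of serum response factor, TGACG (the core of the CREB site), TGACTCA (AP-1), GCGTGGGCG and GCGGGGGCG (EGR sites) and TGGAAA (the core of the NFAT site).
Nr4a1: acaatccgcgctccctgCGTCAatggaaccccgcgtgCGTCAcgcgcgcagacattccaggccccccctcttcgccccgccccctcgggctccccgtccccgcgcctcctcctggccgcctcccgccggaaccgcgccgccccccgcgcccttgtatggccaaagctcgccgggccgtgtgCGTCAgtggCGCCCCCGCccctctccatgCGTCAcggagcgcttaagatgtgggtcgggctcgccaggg
TGACG matched 4 times on the minus strand, with outer ends 40, 69, 213 and 233 bases before the start, and GCGGGGGCG once on the minus strand, 60 bases before it. No 2 matches overlap. Of 32851 promoters of this length, 17.8% held TGACG and 2.57% GCGGGGGCG, beside 1.47% for the CArG box, 4.46% for TGACTCA, 0.536% for GCGTGGGCG and 18.6% for TGGAAA. The window of Cd5 held none of the 6 motifs, which says only that these letters are not in its 250 bases.

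Levels are given as CPM: the UMIs of a gene (unique molecular identifiers, each standing for 1 captured transcript), summed over the cells of a population in a library, per 1000000 UMIs of that population. Cluster 5 held 1286514 UMIs in WT and 2292087 in KO, with medians of 3402 and 3824 UMIs per cell. The DP clusters 0 to 4 (8277 cells) had medians of 2823 and 3097, cluster 9 (468 cells) 3382 and 3724.5, and the SP cluster 6 (795 cells) 5714 and 5363. The median share of mitochondrial UMIs in cluster 5 was 5.22% in WT and 5.24% in KO, and that of ribosomal protein UMIs 13.5% and 12.6%. Intervals are exact 95% intervals that cover counting error only, and PCR copies were already collapsed into UMIs. The libraries shared 17 cell barcodes, none of them in cluster 5 in both. Clusters were made from these same genes, so every comparison of cluster 5 with another cluster is a description without a test.

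Cdc42, the targeted gene, was 463 CPM in WT and 375 CPM in KO cells of cluster 5, from 596 and 859 UMIs. The log2 ratio of KO over WT was -0.31 (interval -0.46 to -0.15). It was -0.16 in the DP clusters, -0.14 in cluster 9 and -0.05 in cluster 6. In clusters 9 and 6 the interval held 0, and in cluster 7 Cdc42 was higher in KO, at 0.38 (0.26 to 0.50). The libraries read the 3′ ends of transcripts and not the removed exon, so these counts do not check the genotype labels.

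All 3 markers by which the cluster was described beforehand were high in it, in both libraries. Cd5 was 1087 CPM in WT and 1007 CPM in KO, against 64.2 and 65.2 CPM in the DP clusters, 16.9-fold and 15.4-fold. Egr1, a zinc-finger transcription factor induced through the Ras and ERK pathway, was 481 and 421 CPM against 29.5 and 22.6 CPM. Nr4a1, an orphan nuclear receptor that reports antigen-receptor signals, was 141 and 181 CPM against 2.12 and 2.34 CPM. In each case neither library of the DP clusters came near either library of cluster 5. The recombinase gene Rag1 was 267 and 304 CPM against 2925 and 2755 CPM, so the cells carried the markers of signalled DP-like cells and had little of a gene of resting DP cells.

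**Figure D1:**
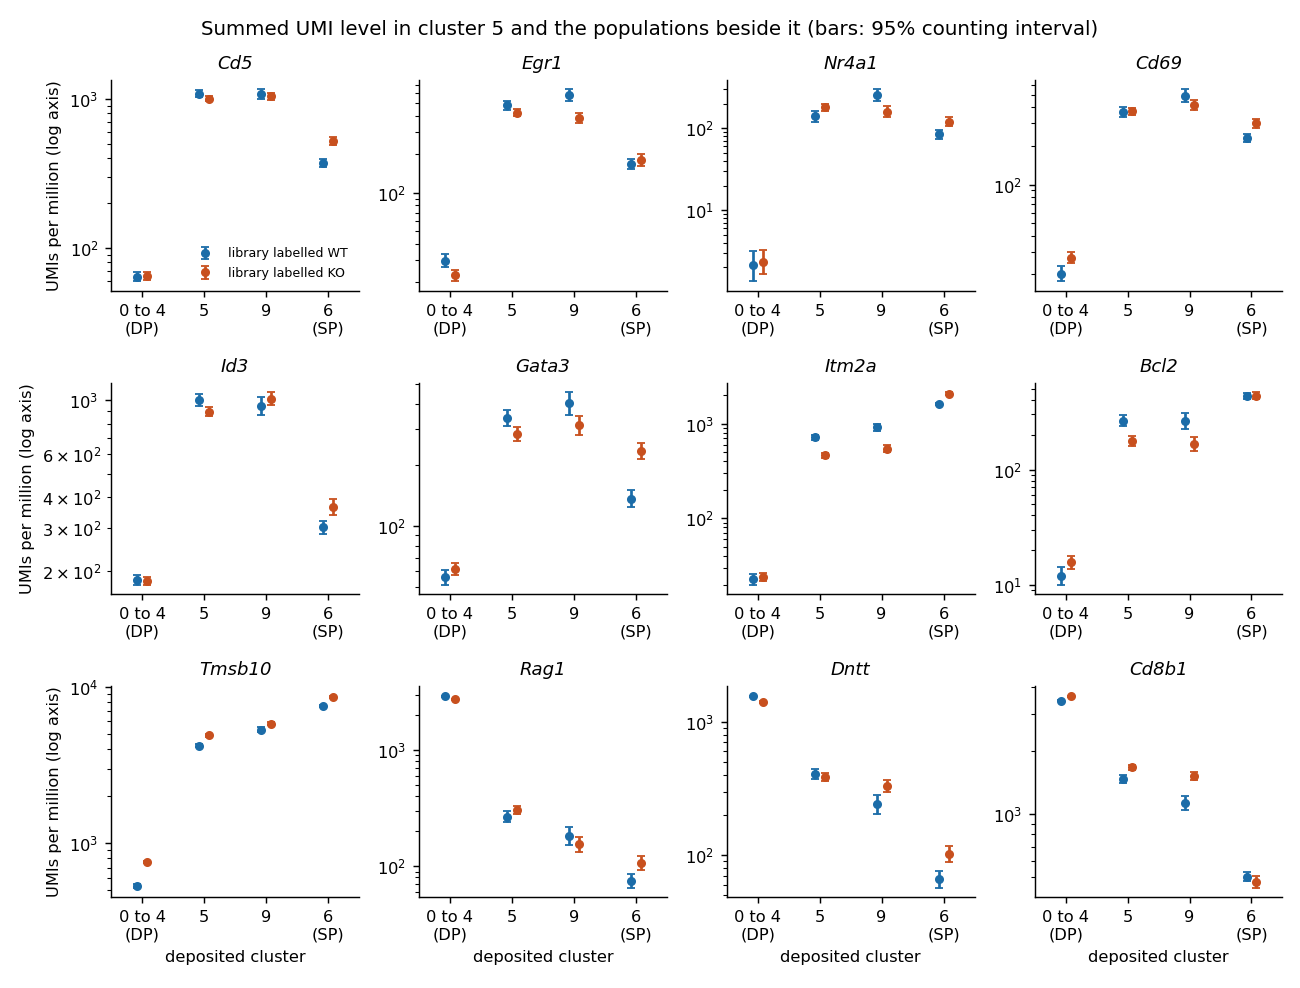
Levels in CPM (log axis) of 12 genes in the DP clusters 0 to 4, cluster 5, cluster 9 and the SP cluster 6; blue points are the WT library and orange points the KO library, 1 library each, and bars are 95% counting intervals. Cd5, Egr1, Nr4a1 and Id3 are highest in clusters 5 and 9, Itm2a, Bcl2 and Tmsb10 are higher still in cluster 6, and Rag1, Dntt and Cd8b1 are highest in the DP clusters.

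A gene was counted as past the fold when its log2 ratio was at least 1 in the same direction in both libraries, among genes with at least 100 UMIs over the cells compared. Against the DP clusters, 307 of 10152 genes (3.02%) were past the fold upward in cluster 5 and 416 (4.1%) downward. The gene lists were chosen with earlier results of these data known, and counts over them are descriptions.

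Of the TCR-induced transcription factors, most were higher in cluster 5: of 14 with enough UMIs, 10 were past the fold upward and none downward, with a median log2 ratio of 2.04 beside -0.06 for all genes. Egr2, a paralogue of Egr1, was 57.5 and 65.4 CPM in cluster 5 of WT and KO against 0.92 and 0.781 CPM in the DP clusters, from 10 and 12 UMIs there. Egr3, the third member, was 28.0 and 36.2 CPM against 0.644 and 0.521 CPM. Nab2, a corepressor that binds EGR proteins and damps them, was 128 and 147 CPM against 3.04 and 4.04 CPM. The 3 EGR factors and their corepressor were thus all higher in the same cluster. Id3, an inhibitor of E proteins that EGR factors switch on, was 997 and 897 CPM against 184 and 182 CPM. The AP-1 subunit Junb had log2 ratios of 1.58 and 1.61 over the DP clusters, while Fos, its partner, had only 31 and 32 UMIs in cluster 5. The calcium-regulated factor Nfatc1 had log2 ratios of 1.74 and 1.86. Ier2 and Id2 were the others past the fold.

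Of 19 genes that restrain the TCR signal, 8 were past the fold upward, 10 were within it and 1, the cytokine-signal inhibitor Socs3, was past it downward. Cd6, a surface receptor related to CD5, was 490 and 558 CPM in cluster 5 of WT and KO against 120 and 122 CPM in the DP clusters. The ERK phosphatase gene Dusp2 was 496 and 452 CPM against 121 and 118 CPM. Pdcd1, which encodes the inhibitory receptor PD-1, was 38.1 and 31.0 CPM against 0.644 and 0.456 CPM, from 7 UMIs in each DP population. The phosphatase gene Ptpn6 (SHP-1) had log2 ratios of 1.48 and 1.44. The other genes past the fold were Cd5, Dusp5, Dusp6 and Sh2d2a. Socs3 was 0.777 and 3.05 CPM in cluster 5 (1 and 7 UMIs) against 20.5 and 18.2 CPM.

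Of 14 selection surface proteins, 5 were past the fold upward. Cd69, which keeps thymocytes in the thymus by removing S1pr1 from the surface, was 370 and 371 CPM in cluster 5 of WT and KO against 20.2 and 26.9 CPM. Cd2, an adhesion receptor, was 767 and 798 CPM against 68.3 and 82.6 CPM. The costimulatory receptor Cd28 was 1225 and 1168 CPM against 320 and 318 CPM. The tetraspanin Cd53 and the inhibitory ligand Cd200 were the others. Of the TCR complex and its proximal signalling proteins, only 2 of 25 were past the fold: Trac, the constant region of the α chain (1418 and 1491 CPM against 558 and 584 CPM), and the kinase Fyn, with log2 ratios of 1.14 and 1.24.

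Among lineage transcription factors, 6 of 22 were past the fold upward and 2 downward. Gata3, required for the CD4 lineage, was 340 and 284 CPM in cluster 5 of WT and KO against 55.9 and 61.6 CPM. Tox, also needed for CD4 T cell development, was 629 and 610 CPM against 88.8 and 87.0 CPM. Ikzf2 (Helios), an Ikaros-family factor of strongly signalled thymocytes and regulatory T cells, was 820 and 830 CPM against 69.6 and 61.7 CPM. Lef1, Ikzf1 and Bach2 were the other factors above the fold, and Ets2 and Tcf12, which encodes the E protein HEB, were below it. The CD4 master factor Zbtb7b (ThPOK) had 1 and 2 UMIs in cluster 5, and the CD8 factor Runx3 5 and 36. Neither lineage factor was therefore measured at a level that separates CD4-bound from CD8-bound cells.

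Agonist selection genes mark thymocytes with strong self-reactivity, and 7 of 13 had enough UMIs. Against cluster 6, 4 of 10 were past the fold downward in cluster 5 and 1 upward, with a median log2 ratio of -0.82. Against the DP clusters, 5 of the 7 were past the fold upward, with a median of 3.65. Besides Ikzf2, Pdcd1 and Cd200 these were Bcl2l11 and Izumo1r. Bcl2l11 encodes Bim, the BH3-only protein that kills negatively selected thymocytes, and was 151 and 207 CPM in cluster 5 against 53.8 and 52.6 CPM. Izumo1r, the folate receptor 4 of regulatory T cells, was 28.0 and 49.3 CPM against 0.92 and 0.911 CPM. Survival genes differed in direction: Bcl2, which SP cells rely on, was 265 and 178 CPM against 12.1 and 15.8 CPM, while Bcl2l1 (Bcl-xL), the survival factor of resting DP cells, was 46.6 and 44.9 CPM against 170 and 169 CPM. Of 22 survival and death genes, 3 were past the fold upward (Bcl2, Bcl2l11 and Gadd45b) and 2 downward (Bcl2l1 and Bmf).

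Of 12 NF-κB genes, Rel, Relb and Nfkbid were past the fold upward and none downward. Of 13 calcium and NFAT genes, Nfatc1 and Orai1, the pore of the store-operated calcium channel, were past it upward, and Nfatc3 and Itpr1, a calcium-release channel, downward. Orai1 was 75.4 and 68.5 CPM in cluster 5 against 13.5 and 15.5 CPM. Among 12 migration receptors and integrins, Ccr4 and Gpr183 were past the fold upward and Plxnd1 downward. Ccr4, a chemokine receptor of newly selected thymocytes, was 80.1 and 73.7 CPM against 2.76 and 4.36 CPM, whereas Ccr7, which draws thymocytes into the medulla, had only 15 and 17 UMIs in cluster 5. Of 21 other actin genes, 6 were past the fold upward, among them Tmsb10, a thymosin that binds actin monomers, at 4210 and 4882 CPM against 534 and 757 CPM. None of the 10 actin genes that the study names was past it. Of 14 glycolysis genes, Slc2a3, Pfkp and Ldha were past it upward. Of 13 SP maturation genes, Itm2a, Ms4a4b, Gimap3, Gimap4 and Gimap6 already were, whereas of 15 MHC class I and interferon genes none was. Among 13 cell cycle genes Rrm2 was past the fold downward, and among 7 heat shock genes Hsph1 upward.

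The recombination and resting DP genes were lower: 7 of 8 were past the fold downward, with a median log2 ratio of -2.03. Rag2, the partner of Rag1, was 31.9 and 41.0 CPM in cluster 5 of WT and KO against 226 and 232 CPM. Dntt, the polymerase that adds bases at V(D)J joints, was 407 and 386 CPM against 1549 and 1413 CPM. Ptcra, which encodes the pre-TCR α chain, had 6 and 18 UMIs in cluster 5. Arpp21 and Aqp11 were also past the fold, and Cd1d1 was not. Coreceptor transcripts were lower too, but unequally. Cd4 was 159 and 233 CPM against 535 and 611 CPM, and Cd8b1 1464 and 1666 CPM against 3467 and 3632 CPM, both past the fold. Cd8a, at 1031 and 1143 CPM against 1854 and 1965 CPM, was not.

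Among all genes with at least 200 UMIs, the 15 with the largest ratio over the DP clusters, by the smaller of both libraries, were Nr4a1, Egr2, A430093F15Rik, Nab2, Hivep3, Ephx1, Lysmd2, Rapsn, Itm2a, Ccr4, Egr1, Cd5, Cd69, B630019A10Rik and Ikzf2. Hivep3, a zinc-finger protein, was 403 and 331 CPM in cluster 5 of WT and KO against 12.3 and 12.4 CPM. Itm2a, a membrane protein known to rise with positive selection, was 714 and 461 CPM against 22.7 and 24.2 CPM. The 5 ranked lowest were Xrra1, Lpar4, Insl5, Papss2 and Rag1. Lpar4, a receptor of lysophosphatidic acid, had 0 and 1 UMIs in cluster 5. Xrra1 was 5.44 and 3.93 CPM in cluster 5 against 89.2 and 85.6 CPM.

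**Figure D2:**
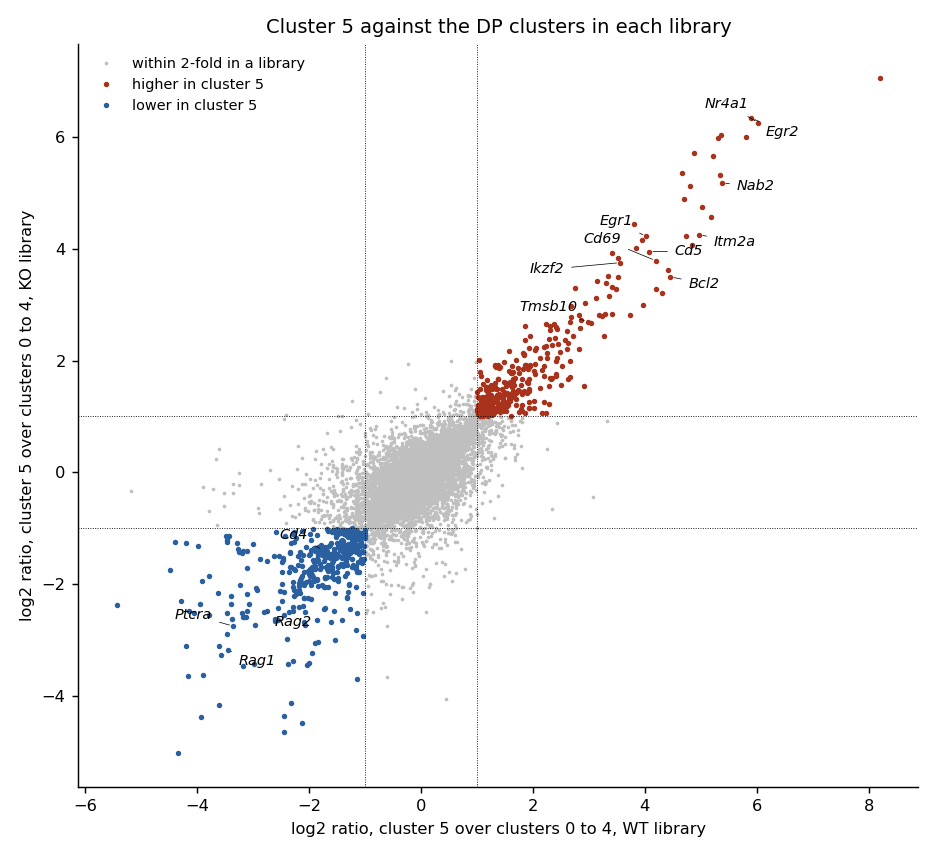
Each point is 1 of 10152 genes, with its log2 ratio of cluster 5 over clusters 0 to 4 in the WT library (x axis) and in the KO library (y axis); dotted lines mark a log2 ratio of 1 either way. The 307 genes above the fold (red) and 416 below it (blue) include the EGR factors and Nr4a1 at one end and Rag1 and Ptcra at the other.

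Cells within the cluster differed widely in how much early-response RNA they held. Before any thinning, 85.1% of WT and 86.7% of KO cells of cluster 5 had a Cd5 UMI, 38.3% and 43.1% an Egr1 UMI and 17.2% and 19.6% an Nr4a1 UMI. The tenth of cells with the most Cd5 UMIs held 29.9% and 27.0% of all Cd5 UMIs, whereas the tenth with the most Nr4a1 UMIs held 86.2% and 85.5% of all Nr4a1 UMIs. A single KO cell held 22 of the 415 Nr4a1 UMIs. Nr4a1 UMIs were thus held by fewer cells than Cd5 UMIs, with Egr1 in between (59.1% and 56.1%). The order is also that of their UMIs in WT, 1399 for Cd5, 619 for Egr1 and 181 for Nr4a1. Genes with fewer UMIs are found in fewer cells by sampling alone, and that part was not separated here.

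Thinned to 1000 UMIs per cell, which left out 2 WT and 4 KO cells, 55.2% (interval 49.9 to 60.5) of WT and 56.4% (52.2 to 60.6) of KO cells of cluster 5 had a Cd5 UMI, against 4.58% and 5.38% in the DP clusters. A UMI of any of Egr1, Egr2, Egr3 and Nr4a1 was found in 31.4% (26.6 to 36.6) and 31.2% (27.4 to 35.3), against 2.00% and 1.92% in the DP clusters. Cluster 16, macrophage-like by C1qa, C1qb and C1qc among its 10 leading genes, is given as a background. It was not shown to lack these genes. Of its cells, 0 of 30 in WT and 0 of 49 in KO held a UMI of the 4 genes before thinning, which allows a share of up to 10.0% and 6.12% (3 counts of the total), at medians of only 875 and 695 UMIs per cell. Cd5 was found there in 0 of 30 and 1 of 49 cells. Rag1 was found in 13.9% and 15.4% of thinned cells of cluster 5, against 89.0% and 87.0% in the DP clusters. Cluster 16 held Rag1 in 4 of 13 thinned KO cells (9.09% to 61.4%), so the share in KO cells of cluster 5 is not read as expression by itself, though single cells of cluster 5 held up to 23 Rag1 UMIs in WT and 35 in KO. The tenth of cells with the most Rag1 held 79.9% and 73.1% of its UMIs in cluster 5.

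At the finest deposited resolution of 2, 833 of the 910 cells (91.5%) were in 1 group, 321 cells of WT and 512 of KO. A second group of 57 cells held 31 WT cells, 8.73% of the cluster (6.01 to 12.2), and 26 KO cells, 4.68% (3.08 to 6.79). In this second group Itm2a was 2166 CPM in WT and 2548 CPM in KO, against 579 and 366 CPM in the main group. Tmsb10 was 6984 and 10862 CPM, against 3937 and 4660 CPM. Cd5 was 690 and 843 CPM, against 1129 and 1033 CPM, so for all 3 genes the second group differed from the main one in the direction of cluster 6. Rag1, which was lower in cluster 6 than in cluster 5, did not go this way in WT. The 31 WT cells of the second group held 61 of the 343 Rag1 UMIs of the 355 WT cells. In KO this second group had 1 Rag1 UMI. Nr4a1 had 3 UMIs in only 31 WT cells and 23 in only 26 KO cells. Single cells of cluster 5 held up to 23 Rag1 UMIs in WT and 22 Nr4a1 UMIs in KO. These sums can therefore rest on few cells, and no difference between libraries is read from them. A further 12 cells, all of KO, formed part of a group too small to describe.

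Cluster 5 and cluster 9 differed in Trbc1 and in little else. Against cluster 9, 2 of 6186 genes (0.0323%) were past the fold upward, Trbc1 and Ly6d, and 0 (0%) downward. Of the 6185 genes other than Trbc1, 98.2% had a log2 ratio within 1 of 0 in both libraries, with a median size of 0.19. Cd5 was 1076 and 1041 CPM in cluster 9 and Cd28 1211 and 1130 CPM, against 1087 and 1007 CPM and 1225 and 1168 CPM in cluster 5. Ly6d, a surface protein of early lymphoid cells, was 222 and 387 CPM in cluster 5 and 91.5 and 104 CPM in cluster 9. Rag1 was 183 and 155 CPM in cluster 9, lower than in cluster 5 but not past the fold.

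Trbc1 was 7432 and 6814 CPM in cluster 5 of WT and KO, with medians of 23 and 25 UMIs per cell, and only 1 WT cell of the 910 lacked it. In cluster 9 it was 78.7 and 74.4 CPM, and 147 of 180 WT and 237 of 288 KO cells had no UMI of it. The 18.3% and 17.7% of cluster 9 cells with a Trbc1 UMI were no more than the 23.3% and 18.4% of macrophage-like cells of cluster 16 that had one, at lower depth, so this share is not read as expression of Trbc1. Free RNA and Trbc2 reads assigned to Trbc1 cannot be told apart here. Trbc2 was 7065 and 6696 CPM in cluster 5 and 9339 and 9640 CPM in cluster 9. Cells of cluster 5 thus held both constant-region transcripts and cells of cluster 9 almost only Trbc2. The same split ran through the DP clusters: every cell of clusters 0, 1 and 4 had a Trbc1 UMI, and 11.8% to 17.1% of the cells of clusters 2 and 3 did. Reads in the shared exon 1 could be assigned to either gene or to none, so the Trbc2 counts in cluster 5 are uncertain, while the 22 differing bases printed above lie nearer the 3′ end that is read.

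**Figure D3:**
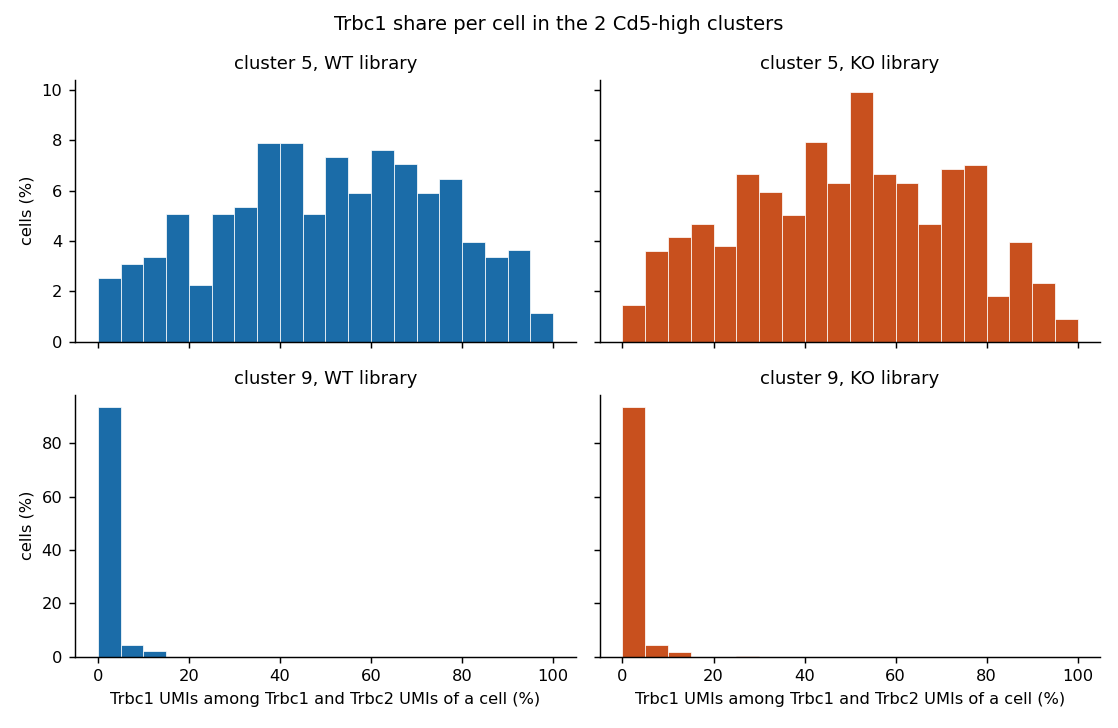
Percent of cells (y axis) by the share of Trbc1 among the Trbc1 and Trbc2 UMIs of a cell (x axis, 5-point bins), for clusters 5 and 9 in the WT (blue) and KO (orange) library; the y axes of the rows differ. Cluster 5 spreads over the whole range and nearly all cells of cluster 9 lie in the lowest bin.

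The 2 clusters kept the same proportion in both libraries. Cluster 5 was 66.4% (62.2 to 70.4) of the cells of clusters 5 and 9 in WT and 65.8% (62.5 to 69.0) in KO. The Trbc1-carrying clusters 0, 1 and 4 were 66.1% (64.5 to 67.6) of the DP cells in WT and 67.4% (66.0 to 68.7) in KO. The intervals of both shares overlapped in each library.

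Against the SP cluster 6, 206 of 7439 genes (2.77%) were past the fold upward in cluster 5 and 205 (2.76%) downward. The genes ranked highest over cluster 6 were Aqp11, Nebl, Endou and Ly6d. Of the 307 genes higher in cluster 5 than in the DP clusters, 272 had enough UMIs for this comparison: 34 went up again by the fold in cluster 6, 20 came down by it and 218 did neither. Of 147 such genes among those lower in cluster 5, 60 were lower still in cluster 6, 86 were within the fold and 1 was higher. Among the 147 of 416 genes that had enough UMIs to be followed, more thus went on downward than turned back. The counts of cluster 5 enter both comparisons.

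Against cluster 6, the genes of the TCR signal were divided: 2 of 14 TCR-induced transcription factors were past the fold upward in cluster 5 and 2 downward, 1 and 1 of 17 feedback inhibitors, and 3 and 3 of 16 selection surface proteins. Egr1 was 167 and 180 CPM in cluster 6 of WT and KO and Id3 301 and 365 CPM, both past the fold downward from cluster 5. Ikzf2 was 355 and 355 CPM. Cd5, at 373 and 522 CPM, was 2.91-fold and 1.93-fold higher in cluster 5 and so not past the fold in KO, and Nr4a1, at 84.5 and 121 CPM, was 1.67-fold and 1.5-fold higher.

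Genes of SP maturation were the opposite: 8 of 14 were past the fold downward in cluster 5, with a median log2 ratio of -1.67 beside 0.10 for all genes. Itm2a was 1613 and 2064 CPM in cluster 6. Il7r, the interleukin-7 receptor that SP cells need to survive, was 335 and 252 CPM in cluster 6, and had 22 and 8 UMIs in cluster 5 (17.1 and 3.49 CPM). Klf2, the factor that drives exit from the thymus, was 157 and 255 CPM in cluster 6 and 14 and 61.5 CPM in cluster 5. Ccr7 was 179 and 122 CPM in cluster 6 and 11.7 and 7.42 CPM in cluster 5. Of 16 MHC class I and interferon genes, 7 were past the fold downward in cluster 5, among them H2-K1, a classical class I heavy chain, at 28.0 and 45.4 CPM against 555 and 269 CPM in cluster 6.

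The lymphotactin gene Xcl1 had no UMI in cluster 5 in either library and 117 and 118 UMIs in cluster 6, at least 16.4-fold higher there in WT and at least 47.9-fold in KO against the level that 3 counts per library would give. Ccnd2, a D-type cyclin, had 4 and 19 UMIs in cluster 5 and was 584 and 336 CPM in cluster 6. Zbtb7b was 46.5 and 43.6 CPM in cluster 6, against the 1 and 2 UMIs of cluster 5. The expression of DP genes also set cluster 5 apart from cluster 6: 6 of 7 recombination and resting DP genes were past the fold upward in it, and of the coreceptors Cd8a and Cd8b1 but not Cd4. Cxcr4, the chemokine receptor that holds thymocytes in the cortex, was 148 and 141 CPM in cluster 5, 170 and 160 CPM in the DP clusters and 20.3 and 23.9 CPM in cluster 6, and so was still at its DP level. Bcl6 followed the same order, at 117 and 116 CPM in cluster 5 and 16.7 and 20.7 CPM in cluster 6. All 106 ribosomal protein genes with enough UMIs had a mean log2 ratio below 0 in cluster 5 against cluster 6, with a median of -0.60.

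A larger share of KO than of WT cells lay in cluster 5. Cluster 5 was 5.81% (5.23 to 6.42) of all WT cells and 7.33% (6.76 to 7.94) of all KO cells, a ratio of 1.26. Of the cells of clusters 0 to 5 and 9 it was 8.51% (7.68 to 9.40) in WT and 10.1% (9.33 to 10.9) in KO, a ratio of 1.19, with intervals that overlap. The share of cluster 9 was larger in KO too, with ratios of 1.29 and 1.22. Together, clusters 5 and 9 were 12.8% (11.8 to 13.9) of the cells of clusters 0 to 5 and 9 in WT. In KO they were 15.4% (14.4 to 16.4), a ratio of 1.20, with intervals that did not overlap. With 1 pool of mice per genotype, a difference between genotypes and one between pools cannot be told apart.

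For KO over WT within cluster 5, a gene was past the fold at a log2 ratio of at least 0.5 either way, among genes with at least 100 UMIs. Of 5054 genes, 193 (3.82%) were higher in KO and 55 (1.09%) lower, with a median log2 ratio of 0.03. With DESeq2 size factors in place of total UMIs the split was 124 higher and 92 lower, so the excess of higher genes depends on the scaling. Ribosomal protein genes had a median of -0.15, with 18 of 93 above 0, and none was past the fold.

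None of 12 TCR-induced transcription factors, 16 feedback inhibitors, 12 selection surface proteins and 25 TCR signalling genes was past the fold in either direction, beside 3.82% and 1.09% of all genes. Cd5 had a log2 ratio of -0.11 (-0.21 to -0.01), Cd69 of 0.00 (-0.16 to 0.17), Id3 of -0.15 (-0.25 to -0.05) and Egr1 of -0.19 (-0.34 to -0.04). Nr4a1 was 0.36 (0.11 to 0.62) in cluster 5 but -0.68 (-0.99 to -0.36) in cluster 9, and over both clusters together -0.04 (-0.23 to 0.16). Since a minority of cells held most Nr4a1 UMIs of cluster 5, its intervals leave out the spread between cells. Egr1 was lower in KO in cluster 9 too, at -0.59 (-0.80 to -0.39), and over both clusters together at -0.33 (-0.45 to -0.21). None of the 10 actin genes that the study names was past the fold. The study described a slight rise of such genes in KO SP thymocytes, a later stage, and measured Ezr, Rac1 and Rhoa by quantitative PCR. Cluster 5 is thus not a check of that result. The 10 genes summed to 5210 CPM in WT and 5416 CPM in KO in cluster 5, and to 4253 and 5028 CPM in SP cluster 6. Of 21 other actin genes only Vim, an intermediate filament protein, was past the fold, at 141 CPM in WT and 205 CPM in KO. Its log2 ratio of 0.54 was 0.48 with DESeq2 size factors.

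**Figure D4:**
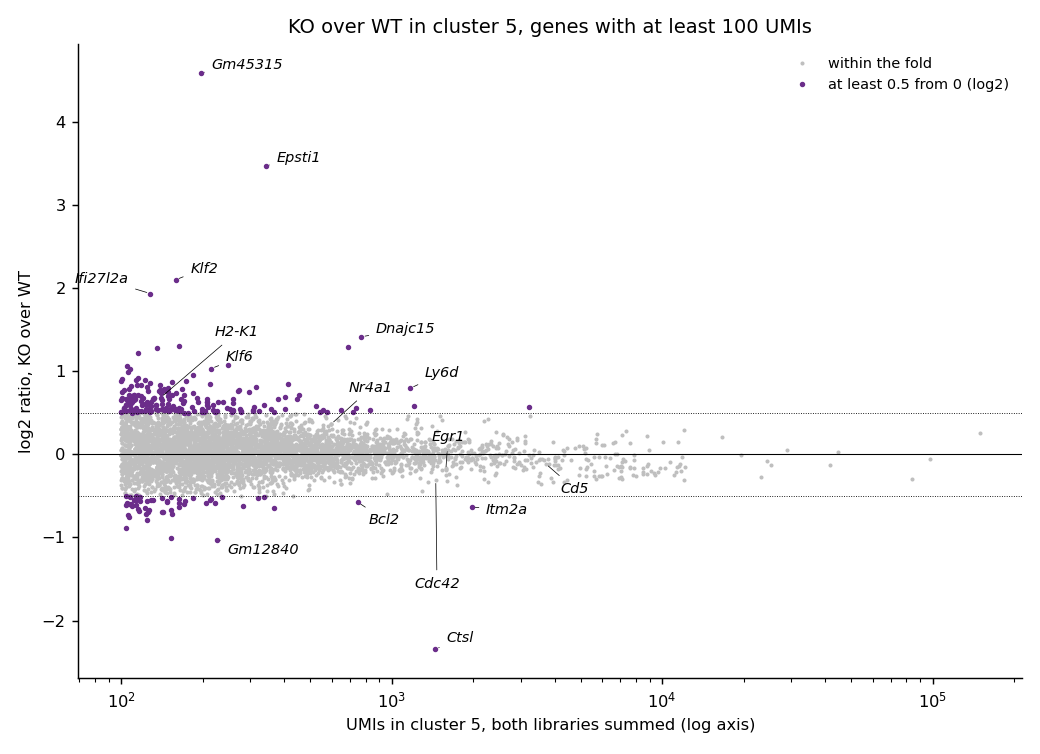
Log2 ratio of KO over WT (y axis) against the UMIs of each of 5054 genes in cluster 5 over both libraries (x axis, log); purple points are at least 0.5 from 0, and dotted lines mark that size. The spread narrows with more UMIs, Ctsl, Itm2a and Bcl2 lie below the lower line, Epsti1, Klf2 and Dnajc15 above the upper one, and Cd5, Egr1, Nr4a1 and Cdc42 between the lines.

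The gene furthest below 0 was Ctsl, which encodes the lysosomal protease cathepsin L. It was 835 CPM in WT and 164 CPM in KO, a log2 ratio of -2.35 (-2.52 to -2.18). The same direction held in the DP clusters (-2.84), cluster 9 (-2.48) and cluster 6 (-1.50), so this difference was not particular to cluster 5. Itm2a and Bcl2 were also lower, although of 12 SP maturation genes 4 (Klf2, Gimap3, H2-K1 and H2-D1) were past the fold upward and Itm2a alone downward, with a median log2 ratio of 0.12. Itm2a was 714 CPM in WT and 461 CPM in KO, at -0.63 (-0.76 to -0.50), and Bcl2 265 and 178 CPM, at -0.57 (-0.79 to -0.36). Both ratios were alike in cluster 9, at -0.74 and -0.65, but not in cluster 6, where Itm2a was 0.36 and Bcl2 0.00. In cluster 7 both were lower in KO, Itm2a at -0.38 (-0.61 to -0.16) and Bcl2 at -0.28 (-0.44 to -0.11). In the main group at resolution 2 alone, an alternative chosen after seeing the data, Itm2a was -0.66 and Bcl2 -0.54. Thinned to 1000 UMIs per cell, Bcl2 was -0.24 and Itm2a -0.50, and the cause of this move was not tested. St8sia4, a sialyltransferase, was -0.65 (-0.95 to -0.34). Gm12840, a noncoding RNA at -1.02 (-1.42 to -0.64), was found in only 16 WT and 25 KO cells. The others among the 10 lowest ratios were Gadd45gip1, Glg1, 2300009A05Rik, Mcrs1 and Xpa.

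Epsti1, an interferon-inducible gene, was the furthest above 0 among the genes ranked by size, at 12.4 CPM in WT and 142 CPM in KO, a log2 ratio of 3.47 (2.79 to 4.34). Dnajc15, a mitochondrial co-chaperone gene, was 104 and 279 CPM, at 1.42 (1.15 to 1.70). The pair are neighbours on GRCm38 chromosome 14, Dnajc15 at chr14:77820681-77875125 and Epsti1 at chr14:77904239-78002657, with 29114 bases and no start of a protein-coding gene between them. Both were higher in KO in the DP clusters too, at 2.42 and 1.71. Just under the minimum of 200 UMIs for ranking, Gm45315 had 4 UMIs in WT and 193 in KO, and was higher in KO in all 4 populations (2615 against 63 UMIs in the DP clusters). It was chosen after its values were seen, as was mt-Nd3, the only mitochondrial gene of 13 past the fold, at 99.5 CPM in WT and 245 CPM in KO in cluster 5 and likewise higher in KO in the other 3 populations.

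Klf2 was 14 CPM in WT and 61.5 CPM in KO, from 18 and 141 UMIs, a log2 ratio of 2.10 (1.42 to 2.93). It was found in 3.94% of WT and 14.2% of KO cells, so more KO cells held a UMI of it. Klf6, a related factor, was 35.8 and 73.7 CPM, at 1.03 (0.57 to 1.55), beside 1.36 in cluster 9 and 1.40 in cluster 6. Adgre5 (CD97), an adhesion receptor of activated lymphocytes, was 40.4 and 85.5 CPM, at 1.07 (0.63 to 1.55). Ly6d was 222 and 387 CPM, at 0.80 (0.60 to 1.00). Over the DP clusters together Ly6d was 0.21. It was 0.13, 0.28 and 0.18 in clusters 1, 3 and 4, which held 1792, 1887 and 1986 CPM in WT. In clusters 0, 2 and 6, with only 38.0, 45.7 and 20.3 CPM in WT, it was 0.83, 1.13 and 1.60. In cluster 9 it was 0.17 (-0.29 to 0.66). A difference as large as in cluster 5 was thus shared with clusters where Ly6d was low, but was not seen in cluster 9. The others among the 10 highest ratios were F13a1, Trim59, Abcc5, Trappc6b and Mrps6.

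Of the coreceptors only Cd4 was past the fold, at 159 CPM in WT and 233 CPM in KO, a log2 ratio of 0.56 (0.32 to 0.80). That ratio was 0.50 with DESeq2 size factors and 0.93 in thinned cells. Cd4 was also higher in KO in cluster 9, at 0.76, and in cluster 6, at 0.63, so this was not particular to cluster 5. Cd8a and Cd8b1 were 0.15 and 0.19 in cluster 5. Of 5 agonist selection genes with enough UMIs, Izumo1r was past the fold, at 0.80 (0.26 to 1.40), from 36 and 113 UMIs, and Bcl2l11 was 0.46 (0.21 to 0.71). Of 10 migration receptors and integrins, Plxnd1 and the integrin subunit Itgb2 lay just past the fold, at 0.50 and 0.51, and under it with DESeq2 size factors. Of 16 survival and death genes none was past the fold upward, and Bcl2 was among those past it downward.

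MHC class I and interferon genes were past the fold upward in 5 of 12 cases, beside 3.82% of all genes, and none downward, with a median log2 ratio of 0.31. H2-D1, a class I heavy chain, was 158 CPM in WT and 224 CPM in KO, at 0.50 (0.27 to 0.75), but 0.45 with DESeq2 size factors. H2-K1 was 28.0 and 45.4 CPM, at 0.68 (0.14 to 1.29). Tapbp (tapasin), which loads peptide on class I, was 35.8 and 60.2 CPM, at 0.74 (0.26 to 1.27). Isg15, a ubiquitin-like interferon product, was 25.7 and 40.1 CPM, at 0.63 (0.06 to 1.27), but -0.037 once cells were thinned to 1000 UMIs. Ifi27l2a was 12.4 and 48.9 CPM, at 1.94 (1.21 to 2.83), with 30 of its 112 KO UMIs in 1 cell, and 1.15 in thinned cells. In cluster 6 all 5 genes were lower in KO, between -0.26 and -1.42.

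**Figure D5:**
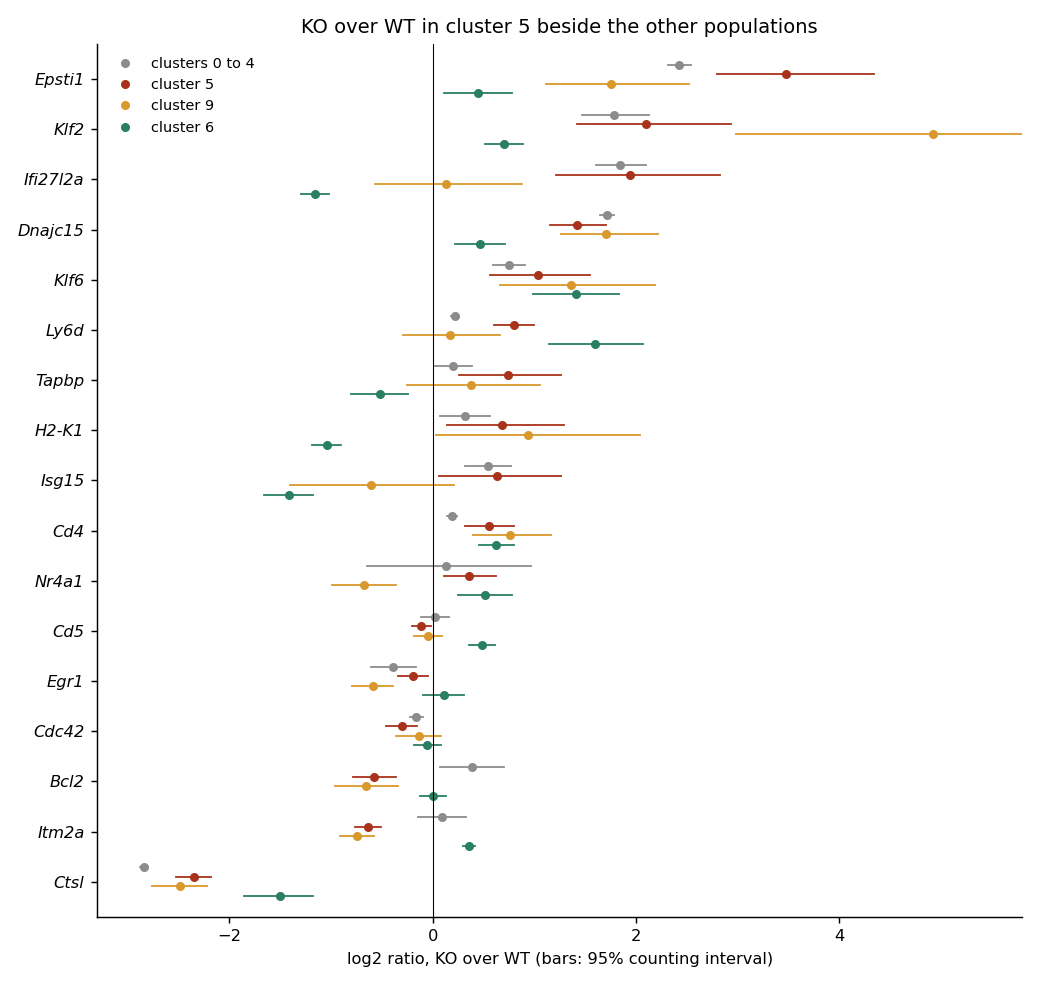
Log2 ratio of KO over WT (x axis) of 17 genes in the DP clusters 0 to 4 (grey), cluster 5 (red), cluster 9 (yellow) and cluster 6 (green); bars are 95% counting intervals, and that of Klf2 in cluster 9 runs past the axis. Ctsl lies below 0 and Epsti1, Klf2 and Dnajc15 above 0 in every population, Itm2a and Bcl2 lie below 0 in clusters 5 and 9, and H2-K1, Tapbp, Isg15 and Ifi27l2a lie above 0 in cluster 5 and below 0 in cluster 6.

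Markers of other thymic cell types were low in cluster 5, and some differed between the libraries. Summed over the list, B cell markers were 26.4 CPM in WT and 27.0 CPM in KO, with 2 of 5 genes at 0, macrophage markers 23.3 and 18.8 CPM, and gamma-delta T cell markers 17.1 and 23.6 CPM. Markers of thymic epithelium were 6.22 and 14 CPM, those of DN thymocytes 7.77 and 11.8 CPM, those of NKT and innate-like cells 4.66 and 2.18 CPM and those of erythroid cells 7.77 and 1.31 CPM, from 10 and 3 UMIs. Erythroid markers were also higher in WT in the DP clusters, at 13.7 against 0.846 CPM. Dendritic cell markers summed to 217 and 212 CPM, of which the widely expressed Cst3 made up 215 and 212 CPM, while Itgax and Xcr1 had 1 UMI each in WT and none in KO. Their part in the KO and WT values was not tested.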

How the data were processed

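Single thymocytes were captured with 10x 3′ chemistry, and per the submitters' processing notes the authors used Cell Ranger 3.0.2, STAR and Seurat with mm10. The authors deposited raw UMI counts per gene and cell and a table of cells with library, clusters at resolutions 1.5, 1.8 and 2, and a mitochondrial percent, listed as 0 throughout, in whose place the share was recomputed from the counts. By the study's methods, cells under 200 or over 6000 genes or over 50000 reads had been removed, and all 13683 deposited cells met the gene limits, with 203 to 5985 genes each. WT held 6115 cells and 29706197 UMIs, KO 7568 cells and 37920214 UMIs, with medians of 3192 and 3401 UMIs per cell. Cell names carry Cdc45 where the labels have Cdc42, and WT and KO were matched on the rest of the name.

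Counts were summed per population and library and divided by the population's total. Log2 ratios used 0.5 added to each sum, with exact conditional binomial 95% intervals, and shares Clopper-Pearson intervals, with a limit of 3 counts for a share of 0. No test was made, since each genotype is 1 library and clusters were built from these genes. Genes needed 100 UMIs. The members and gene lists were chosen with earlier results of these data known. Genes named were members of 27 lists (329 genes in the matrix) and the 15 (clusters 0 to 4) or 10 largest ratios each way among genes with 200 UMIs, without ribosomal protein and mitochondrial genes, Xist and the Y-linked genes. Others are said to be chosen after their values were seen. Ratios were tested on simulated independent counts, which held no spread between cells or pools and so checked the calculation only. Scrublet's automatic threshold marked 2 and 0 cells as doublets and had not worked, so the cells with the highest scores were left out as an alternative only, and these held 8.73% and 7.93% of the cells of cluster 5. Alternatives used edgeR 4.0.16 and DESeq2 1.42.0 scaling in R 4.3.3. Python 3.11, numpy 2.4.6, scipy 1.17.1, pandas 2.3.3 and scanpy 1.11.5 were used. Positions are from GENCODE vM21 (GRCm38), where 19797 of 20282 gene names were found, and promoters from RefSeq GRCm38.p6.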

Additional observations from a re-analysis of the deposited data

Results flagged for a closer look

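Only the 394 named genes, most of them members of the chosen lists, were searched, and only in clusters 9 and 6 beside cluster 5. For 9 genes the log2 ratio of KO over WT lay on opposite sides of 0 in cluster 5 and in cluster 9 or 6. Their counting intervals left out 0 in both, with a ratio past 0.5 in at least 1 of the populations. The difference between populations was not tested for any of them, as each genotype is 1 library. Nr4a1 was 0.36 in cluster 5 and -0.68 in cluster 9, the only gene of this kind between the Cd5-high clusters. Against cluster 6, Gata3 was -0.26 in cluster 5 and 0.78 in cluster 6, and Itm2a -0.63 and 0.36. The other 6 went the opposite way and belong to the MHC class I and interferon list. H2-K1 was 0.68 in cluster 5 and -1.04 in cluster 6, H2-D1 0.50 and -0.26, and B2m, the light chain of class I, 0.37 and -0.66. Tapbp was 0.74 and -0.52, Isg15 0.63 and -1.42, and Ifi27l2a 1.94 and -1.16.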

How the results depend on the processing

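Of the main counts and shares, 113 values under alternatives stayed within the limits set and 39 did not. DESeq2 size factors gave 124 genes higher and 92 lower in KO in cluster 5. Cells thinned to 1000 UMIs gave 58 higher and 24 lower in KO, 166 higher and 277 lower than clusters 0 to 4, and 88 higher and 46 lower than cluster 6, where fewer UMIs leave fewer genes to compare. A minimum of 20 UMIs gave 993 and 480 in KO, 574 and 626 against clusters 0 to 4, 37 and 23 against cluster 9, and 387 and 457 against cluster 6. A minimum of 500 UMIs gave 13 and 3 in KO, 141 and 238 against clusters 0 to 4, and 83 and 51 against cluster 6. Against cluster 9, 1 gene was lower with the clusters at resolution 1.8 or 2, or with the main group alone, a choice made after seeing the data. The share of clusters 0 to 5 and 9 was 8.51% in WT and 10.1% in KO. The share of cells with a Cd5 UMI was 85.1% in WT and 86.7% in KO unthinned and 76.2% and 75.2% at 2000 UMIs, with an Egr1 UMI 38.3% and 43.1% and then 32.2% and 33.1%, and with an Nr4a1 UMI 17.2% and 19.6% and then 13.3% and 14.3%. Thinned to 1000 UMIs, Isg15 was -0.037 for KO over WT and Cd79b -0.0071 against cluster 6, both with the sign turned, and the cause was not tested. Of the values of single named genes, 8 of 420 moved beyond counting error for KO over WT, 54 of 1417 against clusters 0 to 4, 1 of 24 against cluster 9 and 120 of 996 against cluster 6, besides the 2 whose sign turned.

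No paired analysis was possible because each genotype is 1 library and both carry only the number 1, and no replicate could be left out. Cdc42 ranged from -0.37 to -0.23 over the alternatives. Taking clusters 0, 1 and 4 in place of 0 to 4, chosen after seeing the data, gave 282 genes higher and 370 lower. For genes near 100 UMIs, counting error alone spans more than the fold of 0.5 used between genotypes, so a count of such genes says little of any one of them.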

Other observations

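Ly6k and Slfn5, chosen after their values were seen, were also higher in KO within cluster 5. Ly6k, of the same Ly6 family as Ly6d, was 23.3 CPM in WT and 58.5 CPM in KO, a log2 ratio of 1.31, and Slfn5, a Schlafen-family gene, 19.4 and 48.0 CPM, at 1.28. Gm14718 had 1 UMI in WT and 3 in KO in clusters 0 to 4 and 52 and 69 in cluster 5, too few in all for the ranking by size. Each of these is given as a value without a test.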
